A study of Mus musculus with 11 samples.

Results

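The 9 genes described here encode adhesion and scaffold proteins of axons, most of them of the node of Ranvier, the paranode and the juxtaparanode. They are Cntnap1, Cntnap2, Cntn1, Cntn2, Nfasc, Ank3, Sptbn4, Nrcam and L1cam. They were chosen by name from the 55401 genes listed in every count file. The rule used no measured value, but earlier results of these data were known. Counts of calls among them therefore describe the set and do not test it. All 9 passed the filter on low counts and were among the 16817 genes tested. Their levels came from mouse trigeminal ganglion neurons, which carry sensation from the face and the mouth, that held the retrograde tracer DiI and were sorted by fluorescence after dissociation of the ganglia of both sides. Poly(A)-selected RNA was sequenced from 6 libraries labelled MOC1 (3 female and 3 male) and 5 labelled sham (3 female and 2 male). MOC1 is a line of oral squamous carcinoma from mice, and the comparison asks how the neurons of tumour-bearing mice differ from those of sham mice. All 11 libraries share the tracer and the sort. The labels give no strain, genotype, age or time after the tumour, and name no animal for any library, so the p-values measure the spread between these libraries.

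A myelinated axon carries its sodium channels in short gaps between stretches of myelin, the nodes of Ranvier. At the node, neurofascin (Nfasc) and NrCAM (Nrcam) are held by the scaffold ankyrin-G (Ank3), which is tied to the membrane skeleton by beta-IV spectrin (Sptbn4). At the paranode, Caspr (Cntnap1) and contactin-1 (Cntn1) on the axon join a glial form of neurofascin. At the juxtaparanode, Caspr2 (Cntnap2) and contactin-2 (Cntn2) hold Kv1 potassium channels. L1 (L1cam), of the same family as neurofascin and NrCAM, is known in sensory ganglia for its place on unmyelinated axons. Ankyrin-G and beta-IV spectrin also build the axon initial segment. Counts per gene do not separate the neuronal and glial forms of neurofascin or the isoforms of ankyrin-G, and RNA from sorted cells says nothing of where the proteins stood.

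The 3 genes of the L1 family share a motif in their cytoplasmic tails through which they bind ankyrins, and it links the adhesion molecules of this set to Ank3. The coding sequence around it is shown because it is what Nfasc, Nrcam and L1cam have in common, and their levels are set side by side below. Each line gives 90 bases of GENCODE M21 transcripts (GRCm38), 5′ to 3′, with the 15 bases that encode the motif in capitals.
Nfasc: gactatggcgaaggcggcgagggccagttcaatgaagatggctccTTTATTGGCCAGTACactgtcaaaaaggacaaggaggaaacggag
Nrcam: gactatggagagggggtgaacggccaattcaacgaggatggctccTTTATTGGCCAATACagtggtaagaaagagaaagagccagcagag
L1cam: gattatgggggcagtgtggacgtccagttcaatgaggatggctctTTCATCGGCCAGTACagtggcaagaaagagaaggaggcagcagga
The motif lies at chr1:132570507-132570521 on the minus strand in Nfasc, at chr12:44598486-44598500 on the plus strand in Nrcam and at chrX:73855122-73855136 on the minus strand in L1cam, all within coding exons. It was found in 5 of 10 Nfasc, 6 of 17 Nrcam and 5 of 13 L1cam transcripts of the annotation. Over the 90 bases, Nfasc and Nrcam shared 68 (75.6%), Nfasc and L1cam 66 (73.3%) and Nrcam and L1cam 71 (78.9%). Within the 15 bases of the motif, 14 were identical between Nfasc and Nrcam, 13 between Nfasc and L1cam, and 12 between Nrcam and L1cam.

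In the files' GRCm38 coordinates, Cntnap1 lies at chr11:101170523-101190724 (plus strand), Cntnap2 at chr6:45059357-47304213 (plus) and Cntn1 at chr15:92051165-92341967 (plus). Cntn2 lies at chr1:132509427-132543256 (minus) and Nfasc beside it at chr1:132564690-132741797 (minus), 21.4 kb away. Ank3 lies at chr10:69398773-70027438 (plus), Sptbn4 at chr7:27356383-27447686 (minus), Nrcam at chr12:44328885-44601964 (plus) and L1cam at chrX:73853778-73896105 (minus). Several of these genes are very long. Cntnap2 spans 2245 kb, the 4th longest of the genes tested, and Ank3 spans 629 kb, against a median of 21.9 kb.

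Libraries held 10757426 to 16703797 counts in genes, and 14180 to 19078 genes were detected in each. The genes described here had between 383 counts (Sptbn4) and 16868 counts (L1cam) in a library, so counting error was small beside the spread between libraries. All 18 pan-neuronal marker genes were tested, and their summed level was 12565 ± 255 CPM (SD, n = 6) in MOC1 and 10456 ± 980 CPM (SD, n = 5) in sham, without overlap. CPM is a gene's count relative to the size of its library. For marker sums and single marker genes, that size was all counts in genes, without further scaling. For the 9 genes and other named genes, CPM were taken after scaling of the libraries by the trimmed mean of M values (TMM). RNA of other cells was present as well. The summed level of 14 satellite glia markers was 4499 ± 906 CPM (SD, n = 6) in MOC1 and 9577 ± 748 CPM (SD, n = 5) in sham, and that of 12 markers of myelinating Schwann cells, of which Pmp2 was at 0 in every library, was 1397 ± 175 CPM and 2287 ± 95.0 CPM. Each of these 3 differences had an adjusted p of 0.00779 in a two-sided exact permutation test over 9 marker lists, and 0.00433 is the smallest raw p that 462 regroupings allow. The sum of 10 markers of C neurons, the unmyelinated neurons, was higher in MOC1, at 3725 ± 295 CPM against 3025 ± 119 CPM, and that of 7 fibroblast markers, of which Dpt was at 0 in every library, was lower, at 65.1 ± 3.89 CPM against 126 ± 35.4 CPM, both without overlap and with the same adjusted p. Of 9 markers of squamous epithelium and tumour, with sums of 395 to 510 CPM in MOC1 and 402 to 456 CPM in sham (adjusted p = 0.609, exact permutation test), Cdh1 made up most. Krt5, Krt17 and Krt6a were at 0 in every library, and the others were at 5.74 CPM or less. Of these, Krt14 (up to 0.572 CPM) and Dsg3 (up to 1.998 CPM) were at 0 in every sham library. Epcam went the other way, at 0 in every MOC1 library and up to 1.32 CPM in sham. In bulk libraries, fewer cells of a type and less RNA per cell cannot be told apart. Glia also express Nfasc, Nrcam and L1cam, and the part of the glial RNA in the values below was not tested beyond the scalings given with them. Sham female 1 stood apart with an endothelial and mural sum of 1435 CPM, against 178 to 398 CPM in the other libraries, and MOC1 female 3 and MOC1 male 2 had the fewest genes detected, 14180 and 15327. Results of the 9 genes that move by over 1.5 times or change their call without these 3 libraries are given without them too. The marker sums, the ratios and the genes of other lists were not computed without these 3 libraries together.

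With TMM scaling, Cntnap2, Nfasc and L1cam rose in MOC1, by 1.33-fold, 1.33-fold and 1.17-fold, and none of the 9 genes fell. When libraries were scaled instead to the pan-neuronal markers, none of the 9 was called and L1cam lay at -0.07 on the log2 scale. In edgeR's quasi-likelihood test with Benjamini-Hochberg adjustment over all genes tested, 3 of 9 genes (33.3%) were called higher at an adjusted p under 0.05, where 2.34% of all genes tested were called higher, 4.28% lower and 6.62% in either direction. At an unadjusted p under 0.05 there were 6 of 9, and 18.5% of all genes tested. The log2 fold change of 8 of 9 genes lay above 0, and their median was 0.25 against -0.03 over all genes tested.

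Cntnap2 encodes Caspr2, the neurexin-like protein that anchors Kv1 channels beside the paranode and is a target of autoantibodies in painful neuropathy. Its level in the 6 MOC1 libraries ran from 247.8 through a median of 306.1 to 329.3 CPM. In sham it was 205.4, 260.8 and 245.7 CPM in females 1, 2 and 3, and 210.4 and 219.8 CPM in males 1 and 3. All MOC1 libraries but male 1, the lowest, lay above every sham library, so the groups overlapped by a single library. The means were 300.5 ± 28.0 CPM (SD, n = 6) and 228.4 ± 23.9 CPM (SD, n = 5), a log2 fold change of 0.41 (SE 0.08) with an adjusted p of 0.0032 in edgeR's quasi-likelihood test. It ranked 384 among the 16817 genes by p. The call held when any 1 of the 11 libraries was left out, with log2 fold changes of 0.37 to 0.45 and adjusted p of 0.0021 to 0.012. Scaled to the pan-neuronal markers the log2 fold change was 0.13 (SE 0.09, adjusted p = 0.366).

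Cntn2 encodes contactin-2 (TAG-1), the partner of Caspr2 on the axon, which is also present on the glial side. Its MOC1 levels ran from 391.2 through a median of 419.7 to 493.5 CPM. The sham levels were 341.7, 371.2 and 348.7 CPM in females and 467.9 and 393.9 CPM in males. The groups overlapped, because sham male 1 lay above 4 of the 6 MOC1 libraries. The log2 fold change was 0.17 (SE 0.09), with an adjusted p of 0.299 in edgeR's quasi-likelihood test, and it lay at -0.11 with pan-neuronal scaling and at 0.11 without the 3 libraries that stood apart.

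Of the paranodal pair, Cntn1 encodes a GPI-anchored adhesion molecule that carries Caspr to the axon surface. In MOC1, Cntn1 ran from 299.4 through a median of 462.2 to 533.2 CPM. In sham it was 311.2, 493.8 and 424.1 CPM in females and 397.2 and 392.7 CPM in males. The groups overlapped almost fully, with the lowest value of all in MOC1 male 1. Its log2 fold change was 0.13 (SE 0.12, adjusted p = 0.648 in edgeR's quasi-likelihood test), and it was -0.15 with pan-neuronal scaling and -0.02 without the 3 libraries that stood apart. Cntnap1, which encodes Caspr, ran from 101.2 through 130.0 to 150.1 CPM in MOC1. Its sham values were 90.8, 134.0 and 106.3 CPM in females and 100.3 and 116.2 CPM in males. Only the 3 MOC1 female libraries lay above every sham library. Cntnap1 had a log2 fold change of 0.25 (SE 0.11, adjusted p = 0.200 in edgeR's quasi-likelihood test), and it lay at -0.03 with pan-neuronal scaling and at 0.15 without the 3 libraries that stood apart.

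Of the nodal adhesion molecules, Nfasc rose. Its MOC1 levels ran from 162.8 through a median of 184.4 to 209.0 CPM. The sham levels were 119.4, 188.7 and 123.9 CPM in females and 141.7 and 125.6 CPM in males. Every MOC1 library lay above 4 of the 5 sham libraries, and sham female 2 lay among the MOC1 values. The means were 184.6 ± 16.3 CPM (SD, n = 6) and 139.9 ± 28.6 CPM (SD, n = 5), and the log2 fold change was 0.41 (SE 0.11, adjusted p = 0.0211 in edgeR's quasi-likelihood test). Leaving out single libraries gave 0.35 to 0.53. The call was lost without MOC1 female 2 (adjusted p = 0.0506), sham female 3 (0.0604) or sham male 3 (0.0602), and without the 3 libraries that stood apart (0.33, adjusted p = 0.0694). Scaled to the pan-neuronal markers it was 0.13 (SE 0.11, adjusted p = 0.491).

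Nrcam, the other nodal member of the family, was the only 1 of the 9 genes with a log2 fold change below 0. Its MOC1 levels ran from 104.2 through a median of 121.3 to 142.6 CPM. The sham levels were 95.0, 184.2 and 129.4 CPM in females and 128.9 and 138.2 CPM in males. The sham libraries held both the lowest and the highest value, female 1 and female 2, and all MOC1 libraries lay between them. Nrcam had a log2 fold change of -0.14 (SE 0.13, adjusted p = 0.679 in edgeR's quasi-likelihood test), and without sham female 2 it lay at 0.0037. Without the 3 libraries that stood apart it was -0.22. With pan-neuronal scaling it was -0.41 (SE 0.14, adjusted p = 0.0532), and with satellite glia scaling 0.97.

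L1cam was the 1 gene of the 9 whose groups did not overlap. Across all genes tested, 2.15% had every MOC1 library above every sham library. Its MOC1 levels ran from 870.6 through a median of 933.5 to 1085 CPM, and its sham levels were 788.7, 802.2 and 791.0 CPM in females and 850.7 and 834.8 CPM in males. The means, 956.6 ± 85.7 CPM (SD, n = 6) and 813.4 ± 27.8 CPM (SD, n = 5), differed by a log2 fold change of 0.22 (SE 0.06, adjusted p = 0.0410 in edgeR's quasi-likelihood test). The gap was narrow, since the lowest MOC1 library, male 2, lay close to sham male 1. The call was kept in 2 of the 11 fits that left out 1 library, without MOC1 female 1 and without MOC1 male 2, and was lost in the other 9. Adjusted p over these fits ran from 0.00966 to 0.127, and the log2 fold changes from 0.20 to 0.26. Without the 3 libraries that stood apart, of which MOC1 male 2 is 1, the log2 fold change was 0.26 (adjusted p = 0.00867). Leaving out MOC1 male 2 alone also gave 0.26 (adjusted p = 0.00966 in edgeR's quasi-likelihood test). With pan-neuronal scaling the log2 fold change was -0.07 (SE 0.08).

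The scaffold gene Ank3 had MOC1 levels from 671.1 through a median of 852.2 to 956.8 CPM. In sham it was 714.9, 608.5 and 604.9 CPM in females and 630.0 and 750.9 CPM in males. Of the MOC1 libraries, 4 lay above every sham library, while female 1 and male 2 lay below the highest sham libraries. The log2 fold change of 0.30 (SE 0.09) had an adjusted p of 0.0595 in edgeR's quasi-likelihood test and did not pass. It passed in DESeq2 (adjusted p = 0.0119), where 4 of the 9 genes, 3.85% of all genes higher and 9.25% in either direction were called. It also passed without the 3 libraries that stood apart (adjusted p = 0.0019), where 3 of the 9, 2.74% of all genes higher and 7.64% in either direction were called. MOC1 male 2, the lowest MOC1 library for Ank3, is 1 of these 3 libraries. Ank3 passed in 3 of the 11 fits that left out 1 library, and without MOC1 male 2 its adjusted p was 0.0114 in edgeR's quasi-likelihood test. The log2 fold change of Ank3 was 0.00 with pan-neuronal scaling. Sptbn4 had the lowest counts of the 9. Its MOC1 levels ran from 35.5 through 45.7 to 50.1 CPM and its sham levels were 26.9, 36.3 and 33.0 CPM in females and 31.1 and 41.8 CPM in males. All MOC1 libraries but female 1 lay above every sham library. The log2 fold change was 0.40 (SE 0.14), as large as that of Cntnap2, but the wider spread left an adjusted p of 0.120 in edgeR's quasi-likelihood test, and with pan-neuronal scaling it was 0.11. Without the 3 libraries that stood apart it was 0.26 (adjusted p = 0.371).

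**Figure D1:**
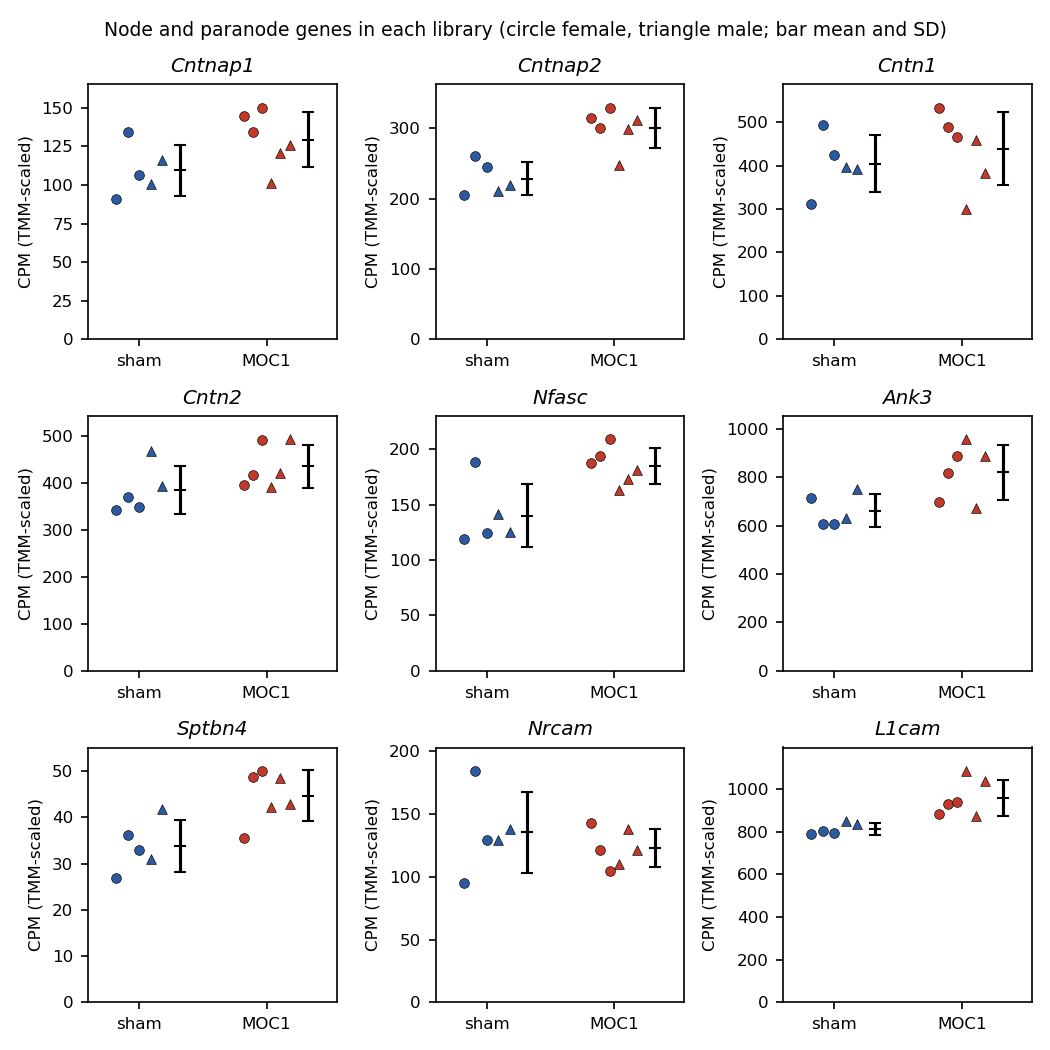
Level of each of the 9 genes in every library, in TMM-scaled CPM on axes that start at 0; circles are female and triangles male libraries, blue is sham (n = 5), red is MOC1 (n = 6), and bars give the mean and SD. The groups of L1cam are apart, those of Cntnap2 and Sptbn4 overlap through 1 MOC1 library each, and for Nrcam all MOC1 values lie inside the sham range. L1cam lay at -0.07 (log2) with pan-neuronal scaling, which is not drawn.

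The plot of levels by library shows these overlaps gene by gene. To compare levels between genes, CPM were divided by the length of all exons of the gene in kb. On this scale L1cam was by far the most abundant in sham, at 110.7 ± 3.78 CPM per kb (SD, n = 5). Cntn1 (42.8 ± 6.96) and Cntn2 (41.3 ± 5.46) followed, and their ranges overlapped. Cntnap2 (22.3 ± 2.33), Ank3 (19.0 ± 1.92) and Cntnap1 (18.6 ± 2.81) formed the next group, with overlapping neighbours. Nrcam (10.1 ± 2.40) and Nfasc (9.89 ± 2.02) also overlapped, and Sptbn4 was lowest at 3.54 ± 0.585 CPM per kb. L1cam, the Cntn pair, the Cntnap2 to Cntnap1 group and the nodal pair were each separated from the neighbour below with no overlap of sham ranges.

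In MOC1 the order was nearly the same. Nfasc, at 13.0 ± 1.15 CPM per kb (SD, n = 6), lay above Nrcam, at 9.20 ± 1.12, with no overlap, where in sham these 2 genes overlapped. Cntn2 (46.8 ± 4.93) and Cntn1 (46.5 ± 8.88) changed places within their spread, and the range of Cntn1 reached that of Cntnap2 (29.3 ± 2.73). L1cam was at 130.2 ± 11.7 and Sptbn4 at 4.67 ± 0.579 CPM per kb. Exon length per gene counts every annotated exon, so a gene whose neurons use a short isoform is set too low. Ank3 has the longest sum of exons of the 9, 34.8 kb.

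**Figure D2:**
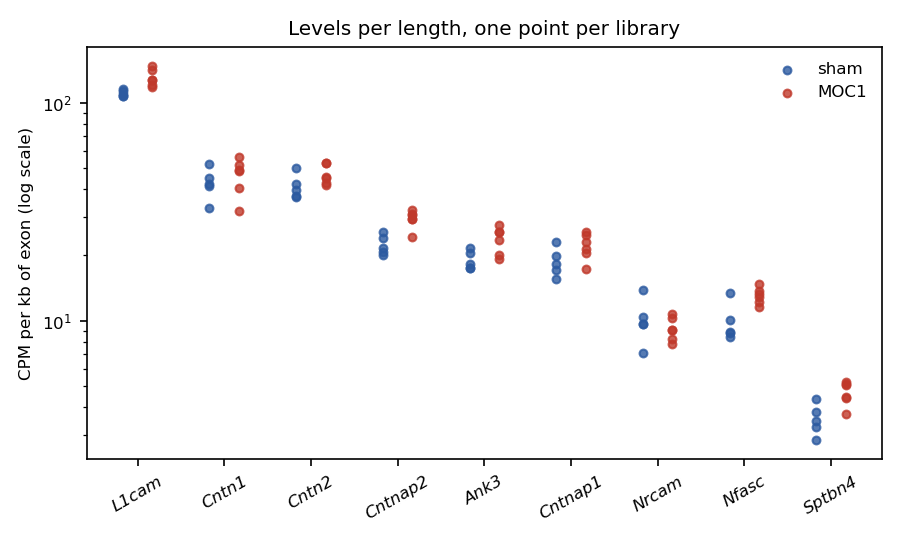
CPM per kb of exon of each gene on a log axis, with 1 point per library, sham in blue (n = 5) and MOC1 in red (n = 6), ordered by the sham mean. L1cam lies above all others, Sptbn4 lies below, and Nfasc and Nrcam overlap in sham but not in MOC1.

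Ratios of counts within a library need no scaling and were compared between partners, as values with no test. The ratio of Nfasc to Nrcam counts differed most. It was 1.255 to 2.005 in MOC1 (median 1.485) and 0.909 to 1.256 in sham (median 1.024). The groups met at MOC1 male 2 and sham female 1. The mean log2 ratio was higher by 0.53 in MOC1, and 0.45 to 0.60 when single libraries were left out. The ratio of Cntnap2 to Cntn2 had a median of 0.689 in MOC1 and 0.601 in sham, with overlapping ranges (0.631 to 0.792 and 0.450 to 0.705), and a mean log2 difference of 0.21 that was 0.11 to 0.27 with single libraries left out. For the paranodal partners, Cntnap1 to Cntn1 was 0.262 to 0.338 in MOC1 and 0.251 to 0.296 in sham, with overlap. The mean log2 difference was 0.13, and 0.096 to 0.169 when single libraries were left out. Ank3 to Sptbn4 was 13.8 to 22.6 in MOC1 and 16.8 to 26.5 in sham, a log2 difference of -0.11 that reached 0.0023 when 1 library was left out.

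The libraries differed along lines that several of the 9 genes shared. Within the sham group, sham female 1 was lowest for 8 of 9 genes, all but Ank3, and sham female 2 was highest for 5 (Cntnap1, Cntnap2, Cntn1, Nfasc and Nrcam). Within the MOC1 group, male 1 was lowest for 5 (Cntnap1, Cntnap2, Cntn1, Cntn2 and Nfasc) and highest for Ank3 and L1cam, while female 3 was highest for Cntnap1, Cntnap2, Nfasc and Sptbn4. Markers of myelinated neurons moved with part of this. Their sum of 8 genes was lowest in sham female 1 (4021 CPM) and MOC1 male 1 (4280 CPM), and was 4832 to 6026 CPM in the other libraries. Between the groups it was 5338 ± 666 CPM (SD, n = 6) in MOC1 and 4895 ± 500 CPM (SD, n = 5) in sham, with overlap (adjusted p = 0.367, exact permutation test). Its part in the levels of the 9 genes was not tested beyond scaling to that sum, and that of the C neuron sum, higher in every MOC1 library than in any sham library, was not tested. The 10 C neuron markers had a median log2 fold change of 0.25 with TMM and of -0.03 with pan-neuronal scaling.

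The likeness of 2 genes was measured as the root mean square difference of their log2 CPM, each centred on its mean over the 11 libraries, so that a small value means that they lay close together in every library. The measure is also small where both genes vary little, as L1cam (SD 0.15) and Cntn2 (SD 0.18) did. Ank3 and L1cam were each other's nearest of the 9, at 0.12, and Cntnap1 and Cntnap2 were each other's nearest, at 0.13. Nfasc and Sptbn4 lay nearest to Cntnap2 (0.14 and 0.20), Cntn1 nearest to Cntnap1 (0.14) and Cntn2 nearest to L1cam (0.15). Nrcam lay nearest to Cntn1, at 0.22, and both vary more widely (SD 0.26 and 0.27). Among all genes tested, those most like Cntnap2 over the 11 libraries were Fgf12 (0.083), Inpp5j (0.087) and Camk2g (0.096). Fgf12 encodes an intracellular protein that binds sodium channels. Its mean level was 414.6 CPM in MOC1 and 324.1 CPM in sham, a difference that its choice by likeness to Cntnap2 already holds. These distances share the libraries and their scaling and carry no test.

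**Figure D3:**
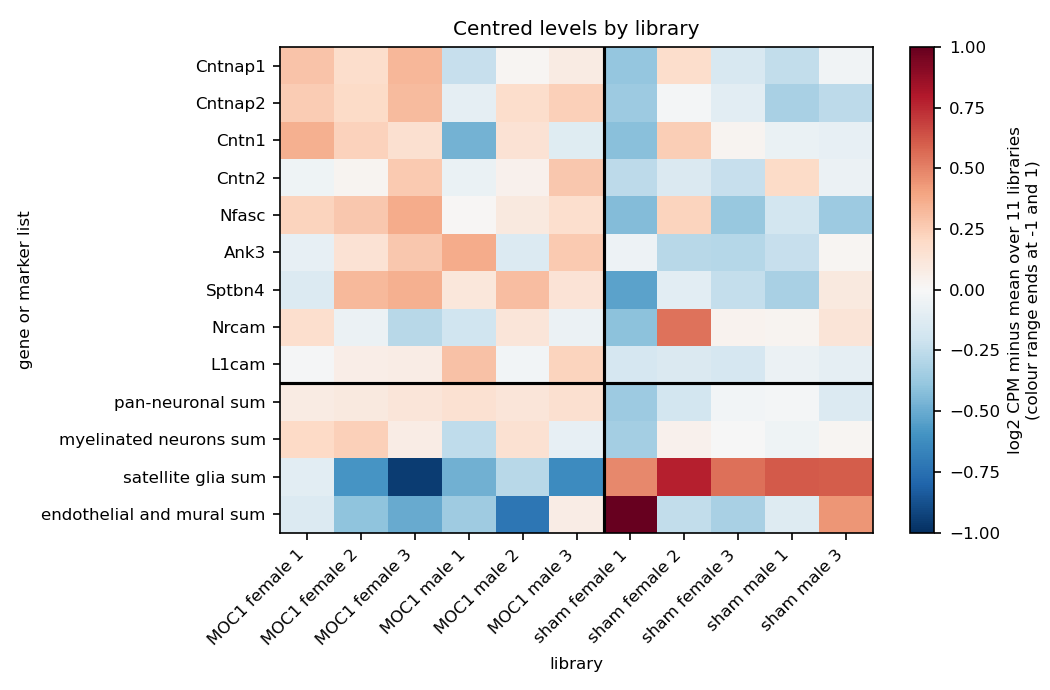
Upper rows are the log2 CPM (TMM-scaled) of the 9 genes, and lower rows the log2 of the summed CPM (without TMM) of 4 marker lists. Each is given by library, minus the mean over the 11 libraries, with red above and blue below the mean. The colour range ends at -1 and 1. Sham female 1 is low for 8 of 9 genes and high for the endothelial and mural sum, and MOC1 male 1 is low for Cntn1 and for the myelinated neuron sum while high for Ank3 and L1cam.

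Within sexes, Cntnap2 had the same log2 fold change in females and males with TMM scaling, 0.41 in each (SE 0.11 and 0.12). In females it was the 1 gene of 9 called (adjusted p = 0.0419, edgeR's quasi-likelihood test), where 1.33% of all genes were called higher and 4.48% in either direction, and 7 of 9 had an unadjusted p under 0.05, as had 17.3% of all genes. In males, where 0.166% of all genes were called higher and 1.25% in either direction, 0 of 9 were called by edgeR and 3 had an unadjusted p under 0.05 (Cntnap2, Nfasc and L1cam), as had 7.95% of all genes; DESeq2 was not run within sexes. In males the adjusted p of Cntnap2 was 0.175. Nfasc had 0.45 (SE 0.14) in females and 0.36 (SE 0.16) in males, and L1cam 0.21 (SE 0.09) and 0.24 (SE 0.10). The contactins and Caspr had their higher log2 fold changes in females. Sham female 1 was the lowest sham library for each of them, and sham male 1 was the highest for Cntn2. Effects within sexes were not fitted without these libraries. Cntn1 had 0.28 (SE 0.15) in females and -0.05 (SE 0.17) in males, Cntn2 0.30 (SE 0.11) and 0.02 (SE 0.12), and Cntnap1 0.37 (SE 0.14) and 0.10 (SE 0.16). The differences between the sexes' effects were 0.33 (SE 0.23), 0.28 (SE 0.16) and 0.28 (SE 0.21), each with an adjusted p of 0.9999 in edgeR's quasi-likelihood test of the interaction. No interaction was called in any gene, by edgeR (708 genes, 4.21%, at an unadjusted p under 0.05, none of them among the 9) or by DESeq2 (760 genes at an unadjusted p under 0.05).

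Levels of the 9 genes did not pass a test between females and males. With condition in the model, 7 of 16817 genes (0.0416%) differed by sex in edgeR's quasi-likelihood test, none of them among the 9, and none of the 9 had an unadjusted p under 0.05. The X-linked L1cam had a female minus male log2 difference in level of -0.11 (SE 0.06). Cntn1, with 0.23 (SE 0.12), had the largest difference of the 9.

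The calls changed with the quantity to which the libraries were scaled. With TMM scaling the median log2 fold change of all genes tested was -0.03, and with scaling to the 18 pan-neuronal markers it was -0.31. With the latter, 14% of all genes were called, 0.172% higher and 13.8% lower. None of the 9 was called in edgeR's quasi-likelihood test, and 1, Nrcam, had an unadjusted p under 0.05. Their median was -0.03. A scaling shifts all genes by about the same amount, so their distance from the median of all genes is not a separate result. Cntnap2 and Nfasc (0.13 each) and Sptbn4 (0.11) were highest, Ank3 was at 0.00, and the others were below 0. Scaling to the 8 myelinated neuron markers, chosen after the values by library had been seen, left 0 of 9 called by edgeR, with 1, Cntnap2, at an unadjusted p under 0.05, where 4.72% of all genes were called, 0.161% higher. Cntnap2 was then 0.26 (SE 0.12, adjusted p = 0.324) and Nfasc 0.27 (SE 0.14, adjusted p = 0.371). Of that marker list 1 gene, Ntrk2, was itself lower in MOC1 by TMM (-0.79, adjusted p = 0.000371), and lay at 0.28 with satellite glia scaling.

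Scaling to the satellite glia markers moved everything the other way. The median of all genes became 1.08, 60.2% of all genes were called, 59.8% higher, and all 9 genes were called, with a median of 1.38. With the satellite glia sum as a covariate in the model, edgeR called 0 of all genes tested and 0 of the 9, with 1131 and 1 (Nrcam) at an unadjusted p under 0.05. Cntnap2 was 0.45 (SE 0.22) there and Nfasc 0.51 (SE 0.30), with wider errors than in the TMM fit. The glial sums do not overlap between the groups, so glial RNA and condition cannot be told apart in these libraries.

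**Figure D4:**
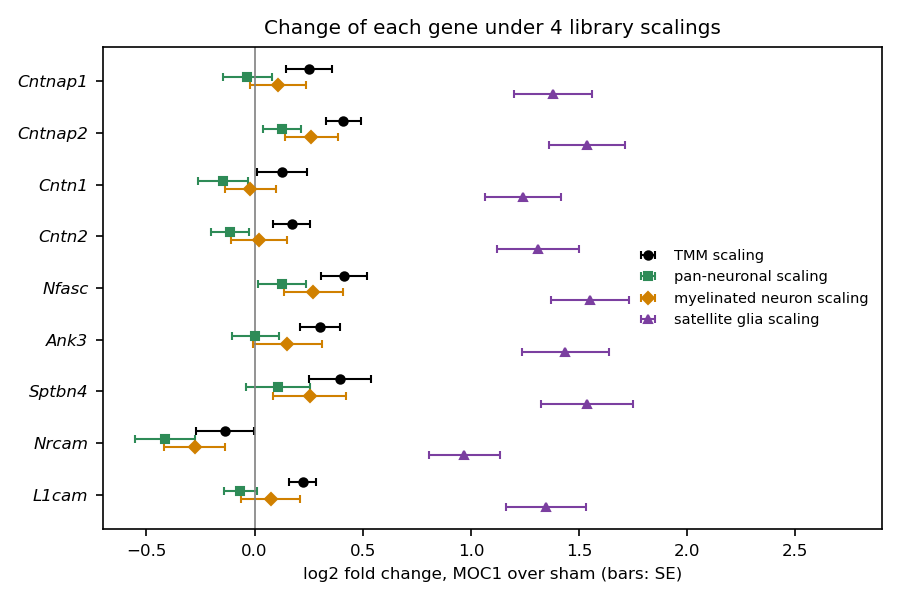
Log2 fold change of MOC1 over sham for each of the 9 genes, with its SE, under TMM, pan-neuronal, myelinated neuron and satellite glia scaling. Pan-neuronal scaling puts Cntnap1, Cntn1, Cntn2, Nrcam and L1cam below 0, and satellite glia scaling puts all 9 above 0.9.

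Other neuronal genes of these axon regions were taken from fixed lists. Of 14 genes of the node and initial segment, 3 rose, 0 fell and 11 did not pass with TMM scaling, with a median of 0.24, and with pan-neuronal scaling 0 were called and the median was -0.05. Scn9a, the sodium channel Nav1.7 of nociceptors, went from 851.1 ± 53.1 CPM (SD, n = 5) in sham to 1099 ± 77.8 CPM (SD, n = 6) in MOC1 with no overlap, a log2 fold change of 0.36 (SE 0.07, adjusted p = 0.0016 in edgeR's quasi-likelihood test). Fgf13, which binds sodium channels, was 0.24 (adjusted p = 0.0192) and Sptan1, the alpha spectrin that pairs with beta-IV spectrin, 0.20 (adjusted p = 0.0320). With pan-neuronal scaling Scn9a was 0.07, and Fgf13 (-0.05) and Sptan1 (-0.09) lay below 0.

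Of 10 juxtaparanode genes, 3 rose, 0 fell and 7 did not pass with TMM scaling (median 0.21), and 0 were called with pan-neuronal scaling (median -0.07). Kcnab2, a cytoplasmic subunit of Kv1 channels, went from 692.6 ± 26.9 CPM (SD, n = 5) to 872.8 ± 40.4 CPM (SD, n = 6), a log2 fold change of 0.33 (SE 0.06, adjusted p = 0.00141 in edgeR's quasi-likelihood test). Adam22, a receptor for LGI proteins at the juxtaparanode, was 0.25 (adjusted p = 0.0220). Epb41l3, the band 4.1B protein that links Caspr2 to the membrane skeleton, was 0.24 (adjusted p = 0.0293). With pan-neuronal scaling Kcnab2 was 0.05, Adam22 -0.03 and Epb41l3 -0.05.

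Among 15 relatives of the 9 genes, other contactins, Caspr proteins, ankyrins and spectrins, 0 fell with TMM scaling in edgeR's quasi-likelihood test, 5 had an unadjusted p under 0.05 in either direction, and the median was 0.16. With pan-neuronal scaling 0 were called higher and 2 were lower, Chl1 (close homolog of L1), the fourth member of the L1 family, at -0.56 and Sptbn1, a beta spectrin, at -0.32. Their values with TMM scaling were -0.28 and -0.02, and with satellite glia scaling 0.85 and 1.099. Of 14 other axonal adhesion molecules of the immunoglobulin superfamily, 2 rose and 2 fell with TMM scaling. Ncam1 went from 438.6 ± 18.8 CPM (SD, n = 5) to 285.3 ± 22.7 CPM (SD, n = 6), a log2 fold change of -0.61 (adjusted p = 1.68e-05), and Ncam2 was -0.84 (adjusted p = 0.000326). Both were above 0 with satellite glia scaling (0.49 and 0.29) and below 0 with pan-neuronal scaling. Opcml was 0.47 (adjusted p = 0.000746) and Cadm3 0.26 (adjusted p = 0.0441), and with pan-neuronal scaling these were 0.18 and -0.02.

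The list of the Schwann cell side and the nodal matrix went the other way. Of its 18 genes 16 were tested, of which 0 rose, 6 fell and 10 did not pass with TMM scaling, with a median of -0.66, and with satellite glia scaling 6 rose, 0 fell and the median was 0.45. Lgi4, a secreted protein needed for peripheral myelination, went from 133.1 ± 16.2 CPM (SD, n = 5) to 57.7 ± 10.7 CPM (SD, n = 6), a log2 fold change of -1.18 (SE 0.12, adjusted p = 5.94e-06 in edgeR's quasi-likelihood test). Dag1, dystroglycan, was -0.92, and Bcan, the matrix proteoglycan brevican, -1.11. Ezr, ezrin of Schwann cell microvilli, was -0.87, and Cadm4, the internodal partner of axonal adhesion molecules, -0.65. Tjp1, a tight junction scaffold, was -0.80 (adjusted p = 0.0453 in edgeR's quasi-likelihood test). Its groups overlapped, at 40.1 to 65.4 CPM in MOC1 and a wide 53.3 to 193.3 CPM in sham. Satellite glia scaling left Lgi4 at -0.10 and put Dag1 at 0.19. The 9 genes, the node and the juxtaparanode lists had medians of 0.21 to 0.25, beside 0.28 for the pan-neuronal markers, 0.25 for the myelinated neuron markers and -1.06 for the satellite glia markers, of which 13 of 14 fell with TMM scaling and 1 with satellite glia scaling.

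**Figure D5:**
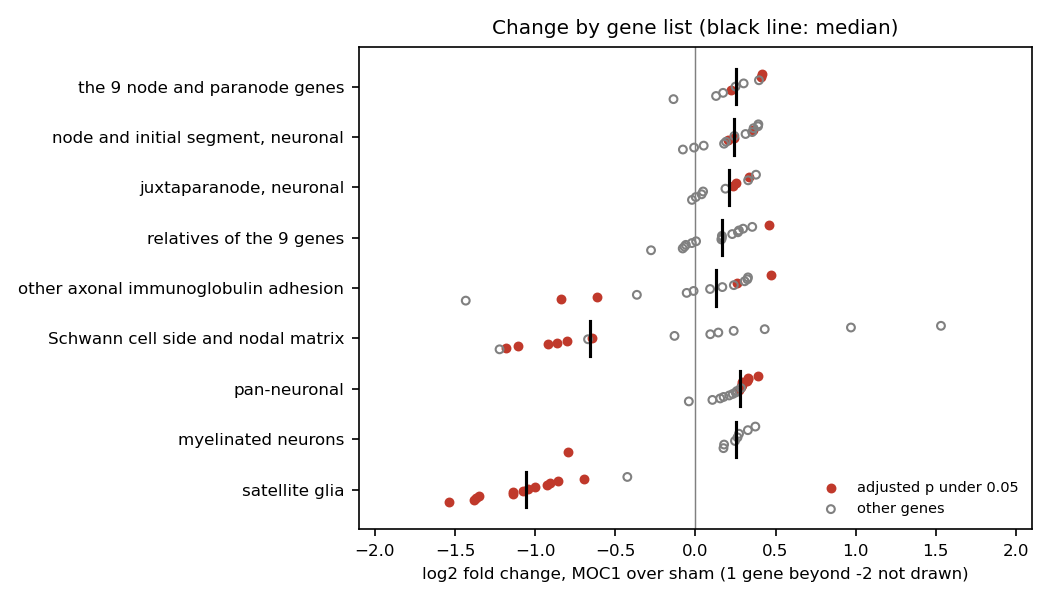
Log2 fold change of MOC1 over sham with TMM scaling for every tested gene of 9 lists; filled points have an adjusted p under 0.05, open points do not, and black lines are medians. The neuronal lists have medians of 0.13 to 0.28, and the Schwann cell side and satellite glia lists of -0.66 and -1.06; with pan-neuronal scaling the medians of the 9 genes and of the other axon lists lie below 0, and 1 gene beyond -2 is not drawn.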

How the data were processed

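RNA of 11 libraries of sorted DiI-labelled trigeminal ganglion neurons was measured. The deposited files hold the authors' raw counts of reads for each gene, made with STAR and by strand, per the file headers. Trimmomatic 0.35, STAR 2.7.1a, RSEM and GRCm38 (mm10) are named, per the submitters' processing notes. The release of the annotation was not given in the sources used. Rows that name no gene (4) held 18.7% to 21.5% of counts and were left out. Analysis used edgeR 4.0.16 (R 4.3.3): filterByExpr on the 4 groups, TMM, and a quasi-likelihood test of condition with sex as a term, adjusted over 16817 genes at 0.05. A 4-group fit gave effects within sexes. SE values were derived from each log2 change and its F statistic. DESeq2 1.42.0 and other settings were alternatives. The test of condition was tried on simulated data, with 50 genes drawn from all genes tested for each fold. It recovered 2% of 1.3-fold, 22% of 1.5-fold, 42% of 2-fold and 58% of 4-fold changes, with 5 false calls. A gene that was not called may therefore still have changed. Libraries of 1 group differed beyond sampling noise (chi-square per degree of freedom 13.9 to 42.4).

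The genes and lists were chosen with earlier results of these data known. Named besides the 9 genes are up to 6 called genes of each list, or otherwise its 2 smallest p, each gene's nearest of the 9, and the 3 genes nearest to Cntnap2, which had the smallest p; Ntrk2, Chl1 and Sptbn1 were named after their values were seen. A gene that the rule takes is not reported here. Exon lengths and sequences come from GENCODE M21, which matched 55141 of 55401 gene identifiers and the positions of all 9 genes.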

Additional observations from a re-analysis of the deposited data

Results flagged for a closer look

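The Cntnap2 level of MOC1 male 1, 247.8 CPM, lay apart from the other 5 MOC1 libraries, of which the nearest was at 298.9 CPM. The gap was 0.627 of the range of the group, just past the critical value of Dixon's test. It was the 1 of 18 groups (9 genes in MOC1 and in sham) in which a library lay that far out, and chance alone does so in about 1 of 20 groups. The same library was lowest of the MOC1 group for Cntnap1, Cntn1, Cntn2 and Nfasc too, and without it the log2 fold change of Cntnap2 was 0.45 (adjusted p = 0.0021 in edgeR's quasi-likelihood test).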

How the results depend on the processing

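The count of the 9 genes called higher was 4 with DESeq2 (3.85% of all genes higher), no filter (2.29%) and no sex term (2.51%). It was 3 with DESeq2 size factors (2.36%), a filter of 1 CPM (3.14%) and without 3 libraries (2.74%). When single libraries were left out it was 1 to 4, where 816 to 1129 of all genes were called, 1.4% to 2.57% higher. It was 0 with pan-neuronal scaling (2355 genes called), myelinated neuron scaling (793) and the satellite glia covariate (0). With satellite glia scaling it was 9 (10116 genes called). None of the 9 was called lower under any of these settings. Pan-neuronal scaling turned Cntnap1 (-0.033), Cntn1 (-0.15), Cntn2 (-0.11) and L1cam (-0.066), myelinated neuron scaling Cntn1 (-0.019) and satellite glia scaling Nrcam (0.97). The covariate turned Cntn2 (-0.21), Ank3 (-0.31) and Nrcam (0.75). Cntn1 was -0.022 without the 3 libraries together, and Nrcam -0.23 to 0.0037 with single libraries left out, the latter without sham female 2. The difference between the sexes in the tumour effect on Cntnap2, -0.0031 in edgeR, was 0.0013 in DESeq2. The cause of these changes was not tested.

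Replicate numbers within a sex did not pair the libraries, with correlations of deviations of -0.036 to 0.044 over 5 pairs. With the replicate number as a block, 4 of 9 genes were called (Ank3 was added, adjusted p = 0.0252) and 1036 of all genes. With SE of 0.06 to 0.14 on the log2 scale, a 1.17-fold change passed for L1cam and a 1.32-fold change did not for Sptbn4.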
